A study of Mus musculus with 24 samples.

Results

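The translation initiation factors and the kinases that act on eIF2 were compared in the hippocampus of different mice, with and without deletion of *Tsc1*. *Tsc1* encodes a brake on the growth-signaling kinase complex mTORC1. Members were the protein-coding genes whose mouse symbol begins with Eif and a digit from 1 to 6 and whose mean level over all mice was at least 1 CPM (the counts of a gene scaled to a common library size). They numbered 53 of 55 protein-coding genes with such a symbol, and of 55385 gene identifiers in all. The lowest member was *Eif4ebp1*, with a mean of 4.11 CPM before scaling, and *Eif4ebp3* (0.731 CPM) and *Eif4e1b* (0.0271 CPM) fell just outside. All mice were Tsc1f/f, aged 16 to 22 weeks and of both sexes, and all received tamoxifen. The Cre-positive groups also carried Camk2a-CreERT2, a transgene whose *Camk2a* promoter drives a tamoxifen-dependent Cre in excitatory forebrain neurons; which cells lost *Tsc1* was not measured here. There were 6 groups of 4 mice (A to D in each): Cre-negative controls taken on day 8, Cre-positive mice taken on day 4, 6, 8 or 13 after the start of tamoxifen, and Cre-positive mice given 10 mg/kg rapamycin, an mTORC1 inhibitor, from day 4 and taken on day 13.

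Initiation factors bring the initiator tRNA and the small ribosomal subunit to the start codon of an mRNA. eIF2 carries the tRNA, eIF2B reloads eIF2 with GTP, and the eIF2 kinases block that reloading under stress, while eIF3 organizes the small subunit and eIF4F binds the cap of the mRNA. mTORC1 acts on this machinery mainly by phosphorylating the 4E-binding proteins, which otherwise keep eIF4E from eIF4G. The data are mRNA levels, so phosphorylation and protein amounts were not measured.

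Total counts per mouse ranged from 28208561 to 126435936, and *Tsc1* itself fell in every Cre-positive group, from 105 ± 3.21 CPM in controls (mean ± SD, n = 4) to between 63.6 ± 6.19 CPM on day 13 and 78.4 ± 2.65 CPM on day 4. Every marker list of hippocampal neurons and glia was detected. The 24 mice differed in ways that the groups do not define. *Eif2s3y*, a member on the Y chromosome, was detected in 1 control, 3 day 4, 3 day 6, 1 day 8, 2 day 13 and 2 rapamycin mice. The names of the deposited data carry a number per mouse whose first part may mark a series of animals, but whether it stands for a litter, a cohort or neither is not stated. On day 13, mice A and B shared that number and both expressed *Eif2s3y*, whereas mice C and D had other numbers and did not. Controls and day 8 mice shared their numbers, and the other groups had numbers of their own, so the group and whatever the number marks cannot be told apart there. Nothing in the labels says that mice with the same letter in different groups were related. The 5 comparisons with controls use the same 4 control mice. Only the day 8 mice were taken on the same day as these controls. In the other comparisons with controls, the day and the deletion cannot be told apart. No Cre-negative mice received rapamycin. In these bulk samples, more cells of a type and more RNA per cell cannot be told apart.

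More of the members' mRNAs differed from controls on each later day, mostly upward, and few differed under rapamycin. A gene is said to have risen or fallen where edgeR's quasi-likelihood test gave an adjusted p under 0.05, and it is called DE where the absolute log2 fold change was also over 0.5. On day 4, 2 of 53 members rose (3.77%, against 2.61% of 25308 genes tested) and 2 fell (3.77%, against 1.56%). Among protein-coding genes with a mean of at least 1 CPM, which are closer to the members in level, 4.35% rose and 2.37% fell on day 4, so the share of members that rose was below this background. On day 6, 15 of 53 rose (28.3%, against 6.24% of all genes) and 1 fell (1.89%, against 3.81%), where 10.7% of the protein-coding genes rose. These early calls depend on the fit: with all 24 mice in 1 edgeR fit, 0 members passed on day 4 (6 with DESeq2, 12 at an unadjusted p under 0.05 in the fit of 8 mice) and 1 on day 6, *Eif3b* (0.34, adjusted p = 0.0367). A single member, *Eif4ebp1*, was called DE upward on day 6 (1.89%, against 0.647% of all genes and 0.885% of the protein-coding genes). On day 8, 24 of 52 members tested rose (46.2%, against 8.41% of all genes and 14.2% of the protein-coding genes). Of these, 4 were called DE (7.69%, against 2.15% of all genes and 2.99% of the protein-coding genes). On day 13, 30 of 52 rose (57.7%, against 15.6%) and 18 were called DE (34.6%, against 8.40%). Among 13902 protein-coding genes of at least 1 CPM, 24.7% rose on day 13 and 12% were called DE upward. On day 13, edgeR found 0 members lower (against 11.3% of all genes and 9.55% of the protein-coding genes), 0 at an unadjusted p under 0.05 and 0 with DESeq2.

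**Figure D1:**
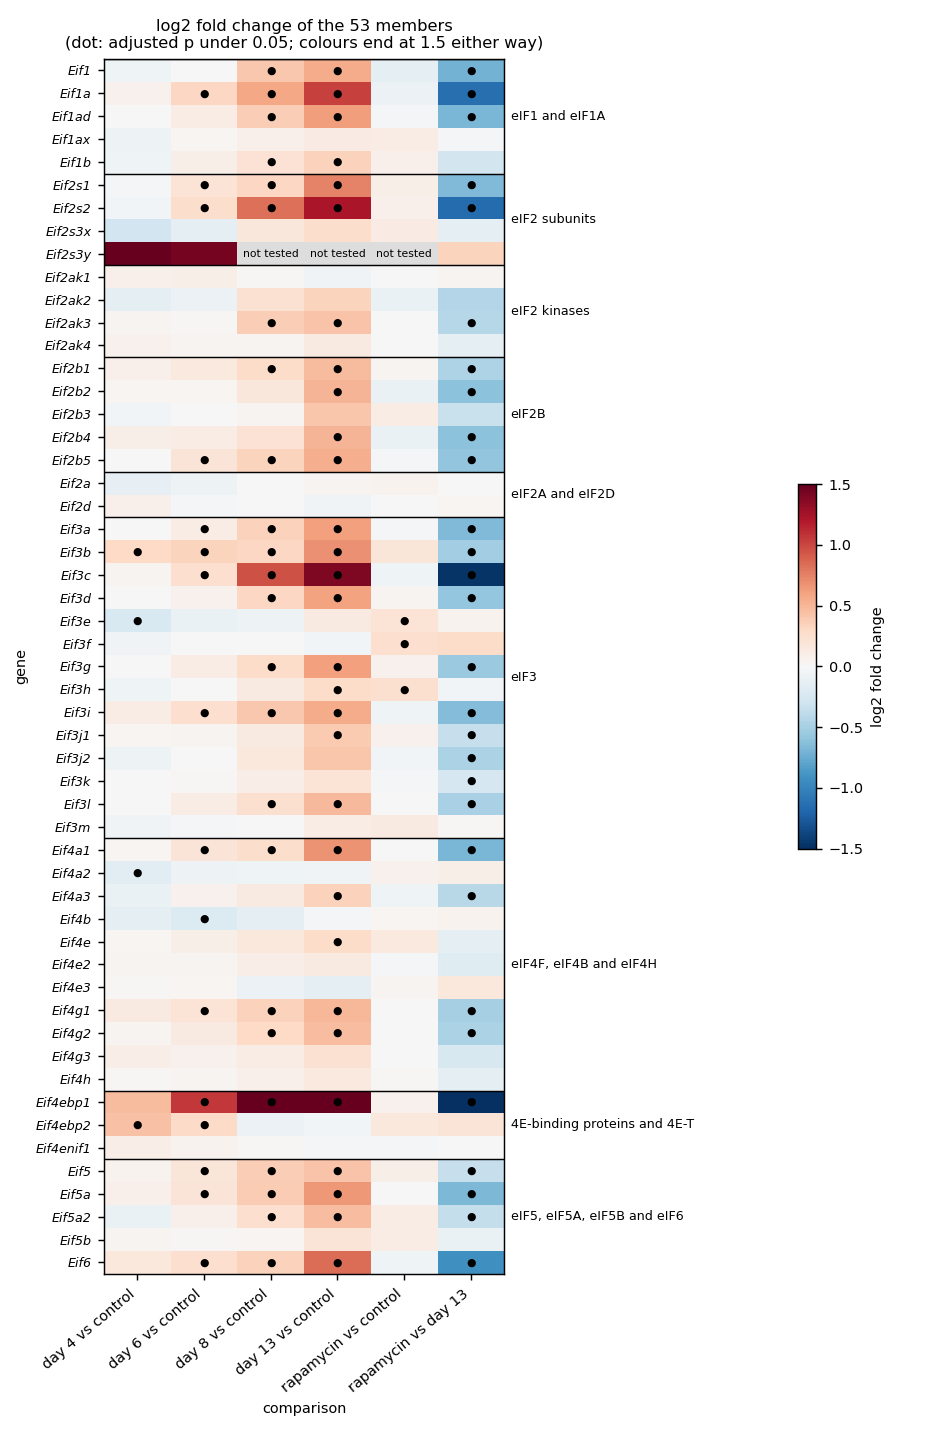
Log2 fold change of each of the 53 members (rows, grouped by complex) in each of 6 comparisons (columns), with a dot where the adjusted p was under 0.05. Dots gather in the day 8, day 13 and rapamycin against day 13 columns and only 3 stand in the rapamycin against control column; the strongly colored *Eif2s3y* cells carry no dot, since that gene was present or absent by mouse.

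The median log2 fold change of the members was 0.02, 0.07, 0.20 and 0.42 for days 4, 6, 8 and 13. The median of protein-coding genes with at least 1 CPM was 0.00, 0.01, 0.04 and 0.08 in the same comparisons. Against controls, the rapamycin group had 3 of 52 members higher (5.77%, against 1.26% of all genes and 1.84% of the protein-coding genes). The members' median there was 0.02. Against day 13, the rapamycin group had 29 of 53 members lower (54.7%, against 17.7%), 19 of them called DE (35.8%, against 11.2%). The median of the members against day 13 was -0.36 and that of the protein-coding genes was -0.11.

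Control levels per kilobase of exon, which allow genes to be compared, ran over a wide range. *Eif4a2*, an RNA helicase of eIF4F, was highest at 79.1 CPM per kb, ahead of *Eif4b* (50.4), *Eif3c* (41.7), *Eif4g2* (41.4) and *Eif4a1* (41.1). The lowest were *Eif4ebp1* (0.499 CPM per kb), *Eif3j1* (1.70) and the kinase *Eif2ak2* (1.83). The 3 lowest genes thus stood far below the helicases and scaffolds already in the controls.

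Promoter sequence was read for the members as a property that the rule did not use. RefSeq promoter windows of GRCm38.p6 were matched for 43 of 53 members and *Eif4ebp1* was not among them. Windows are shown for *Eif3c* and *Eif2s2*, which rose most among those matched, and for the paralogs *Eif4a1* and *Eif4a2*, which differ in course. They run 5′ to 3′ and stop at the first annotated start, and capitals mark the E-box CACGTG and the CRE core TGACG on either strand. They lie at chr7:126566412-126566616 (minus strand), chr2:154892936-154893156 (minus), chr11:69672424-69672673 (minus) and chr16:23107218-23107443 (plus).
Eif3c: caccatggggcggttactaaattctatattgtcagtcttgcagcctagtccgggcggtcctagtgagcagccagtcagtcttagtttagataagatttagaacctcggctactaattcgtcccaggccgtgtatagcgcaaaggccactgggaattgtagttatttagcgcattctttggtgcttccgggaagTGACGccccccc
Eif2s2: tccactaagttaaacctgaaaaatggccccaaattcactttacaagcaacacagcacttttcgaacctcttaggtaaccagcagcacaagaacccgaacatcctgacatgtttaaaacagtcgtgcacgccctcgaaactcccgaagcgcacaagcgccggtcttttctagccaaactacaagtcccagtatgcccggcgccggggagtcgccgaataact
Eif4a1: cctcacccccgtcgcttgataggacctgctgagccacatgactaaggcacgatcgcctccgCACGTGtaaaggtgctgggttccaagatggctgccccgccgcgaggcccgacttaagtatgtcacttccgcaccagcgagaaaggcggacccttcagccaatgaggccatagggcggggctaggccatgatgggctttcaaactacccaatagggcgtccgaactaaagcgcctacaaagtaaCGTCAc
Eif4a2: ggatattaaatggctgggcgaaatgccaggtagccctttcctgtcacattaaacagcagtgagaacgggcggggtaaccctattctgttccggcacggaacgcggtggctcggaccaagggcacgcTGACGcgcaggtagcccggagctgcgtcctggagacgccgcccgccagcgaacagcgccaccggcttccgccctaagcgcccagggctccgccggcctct
The *Eif3c* window held a CRE core at position -57 from the RefSeq start, the *Eif4a1* window held an E-box at -189 and a CRE core at -6, and the *Eif4a2* window held a CRE core at -124. The *Eif2s2* window held none of these. In the 250 bases before the start, on either strand, 22 of 43 members held the CRE core TGACG (19.8% of 27025 genes with a window), 9 held the E-box CACGTG (6.86%), 32 held the GC box GGGCGG (35.4%) and 1, *Eif2s3x*, held the ATF4 element TGATGNAA (3.91%). The median GC content of these windows was 59.2% for the members and 52.0% for all genes. A match of letters is a description and not a site of binding.

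*Eif4ebp1*, which encodes the translational repressor 4E-BP1 (chr8:27260329-27276674, plus strand, GRCm38), showed the greatest rise of any member on days 6, 8 and 13. Its levels were 1.12, 0.884, 1.23 and 1.15 CPM in the control mice and 2.18, 2.51, 2.95 and 1.52 CPM on day 6. They were 9.52, 4.89, 13.4 and 4.65 CPM on day 8 and 10.6, 22.5, 4.72 and 7.33 CPM on day 13. In the rapamycin mice they were 0.937, 0.985, 1.12 and 1.5 CPM. On day 4 they were 1.28, 1.45, 1.91 and 1.43 CPM. All mice of day 4, 6, 8 and 13 lay above the highest control, and the rapamycin mice overlapped the controls. On day 4 the log2 fold change against controls was 0.47 ± 0.175 (SE, adjusted p = 0.167), which did not pass. The gene had risen by day 6 (1.06 ± 0.196, adjusted p = 0.00449), further at day 8 (2.87 ± 0.332, adjusted p = 5.62e-04) and stood at 3.34 ± 0.437 (adjusted p = 0.00114) on day 13. Under rapamycin it was 0.07 ± 0.200, with a 95% interval of -0.37 to 0.50. When all 24 mice were fitted together, the day 6 rise was no longer called (1.07, adjusted p = 0.211).

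*Eif4ebp2*, the paralog that codes for the more abundant 4E-BP2 of neurons, followed another course. Its levels were 40, 42.8, 41.9 and 31.7 CPM in controls and 57.3, 53.2, 52.1 and 49.7 CPM on day 4. Every day 4 mouse was above every control, and the gene rose on day 4 (0.44 ± 0.0824, adjusted p = 0.0129) and day 6 (0.29 ± 0.0857, adjusted p = 0.0456). The log2 fold change was -0.09 on day 8 and -0.04 ± 0.131 on day 13, with a 95% interval of -0.33 to 0.25 on the latter day. The day 6 rise was kept in only 2 of 8 fits without 1 mouse (lost without control A or D or any day 6 mouse, adjusted p up to 0.142). Without day 4 mouse B the day 4 rise had an adjusted p of 0.0507 in the same test, and with the *Xist* level as a covariate it had 0.0609. *Eif4enif1*, for the eIF4E transporter 4E-T, passed in no comparison. *Eif4ebp3* lay below the level required of a member, between 0.341 and 1.11 CPM in all mice.

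The ratio of *Eif4ebp1* to *Eif4ebp2* within a mouse does not depend on the scaling between libraries. It was 0.0285 ± 0.00641 in controls (mean ± SD, n = 4) and 0.315 ± 0.273 on day 13. Its lowest day 13 value, 0.125, was above its highest control value, 0.0363. In the rapamycin group it was 0.0263 ± 0.00618.

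The eIF2 subunits did not move together. *Eif2s2*, which encodes eIF2 beta, had 40.6, 40.8, 38.3 and 40.6 CPM in controls. The day 6 mice had 48.8, 46.0, 51.6 and 47.0 CPM, the day 8 mice 77.9, 60.4, 89.8 and 60.4 CPM and the day 13 mice 96.5, 126, 75.6 and 80.2 CPM. The day 4 mice (37.9 to 40.6 CPM) overlapped the controls, and each later untreated group lay above them. *Eif2s2* rose on day 6 (log2 fold change 0.26 ± 0.0447, adjusted p = 0.00262, and 0.339 in the fit of all 24 mice), day 8 (0.83 ± 0.113, adjusted p = 0.00135) and day 13 (1.22 ± 0.136, adjusted p = 6.58e-04). *Eif2s1*, for eIF2 alpha, the subunit that the kinases phosphorylate, rose less, from 35.3 ± 0.556 CPM in controls to 59.8 CPM on day 13 (0.74 ± 0.113, adjusted p = 0.0022). Its day 8 rise (0.31, adjusted p = 0.0217) was lost in 5 of 8 fits that left out 1 mouse, namely any 1 control or day 8 mouse A, with adjusted p up to 0.0657. The ratio of *Eif2s2* to *Eif2s1* in a mouse was 1.14 ± 0.0235 in controls and 1.57 ± 0.136 on day 13, with no overlap.

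eIF2 gamma, which binds the initiator tRNA and GTP, has a gene on the X chromosome, *Eif2s3x*, and one on the Y chromosome, *Eif2s3y*. *Eif2s3y* was at 51.1 to 76.6 CPM in 12 mice and at 0 to 0.127 CPM in the other 12. *Eif2s3x* had a median of 29.5 CPM in the mice with *Eif2s3y* (27.2 to 44.8 CPM) and 48.3 CPM in those without (34.8 to 55.2 CPM). The sum of both genes was 80.7 to 111 CPM with *Eif2s3y* and 34.8 to 55.3 CPM without, with no overlap. Of the 75-base windows of *Eif2s3x* transcripts, 35% also occur in other genes, so its level and the sum are less certain. Because the mice with *Eif2s3y* are spread unevenly over the groups, comparisons of *Eif2s3x* mix both sources of difference. *Eif2s3x* passed in no comparison (0.26 ± 0.162 on day 13, adjusted p = 0.256). With the *Xist* level of each mouse as a covariate its day 13 log2 fold change was 0.39, with an adjusted p of 0.0272. *Eif2s3y* was tested in only 3 comparisons, and without control mouse A, the single control that expressed it, edgeR called it higher on day 4 and day 6.

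**Figure D2:**
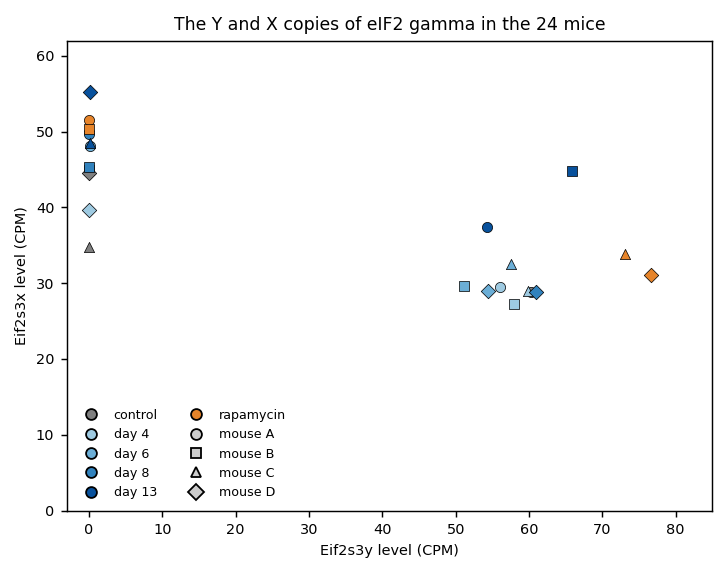
Level of *Eif2s3x* against level of *Eif2s3y* (both in CPM) in each of the 24 mice, with the group as color and the mouse letter as shape. The mice form 2 columns, 12 near 0 CPM of *Eif2s3y* and 12 between 51.1 and 76.6 CPM, and most of the second column lies lower in *Eif2s3x*.

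Of the 4 eIF2 kinases, *Eif2ak3* alone passed edgeR's test in the fits of 8 mice. On day 13 that made 25% of the kinases higher, against 15.6% of all genes and 24.7% of the protein-coding genes. *Eif2ak3* encodes PERK, which responds to unfolded proteins in the endoplasmic reticulum. Its levels were 25.6, 25.0, 26.9 and 27.0 CPM in controls, 33.5, 34.6, 37.1 and 30.7 CPM on day 8, 37.1, 34.3, 38.1 and 33.4 CPM on day 13 and 26.6, 26.2, 27.4 and 25.2 CPM under rapamycin. All day 8 and day 13 mice were above all controls. It rose on day 8 (log2 fold change 0.37 ± 0.0647, adjusted p = 0.00504) and day 13 (0.43 ± 0.0737, adjusted p = 0.00355) and was lower under rapamycin than on day 13 (-0.43 ± 0.0817, adjusted p = 0.00421). Unlike most members its day 13 mice A and B did not both stand above C and D, and its log2 fold change was 0.45 without the first pair and 0.45 without the second.

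The other kinases gave these values on day 13. *Eif2ak1*, for the heme-regulated kinase HRI, had a log2 fold change of -0.05 (95% interval -0.21 to 0.10). *Eif2ak4*, for GCN2, which senses uncharged tRNA, had 0.13 (-0.07 to 0.34). Without day 13 mice C and D, *Eif2ak4* had 0.29 (adjusted p = 0.00593), and -0.29 in rapamycin against day 13 (adjusted p = 0.0236), and without mice A and B it had 0.00 in both. *Eif2ak2*, for PKR, which binds double-stranded RNA, had 0.33 (-0.06 to 0.71). *Eif2ak2* had 10.5, 9.98, 8.43 and 8.41 CPM in controls and 9.86, 16.6, 9.91 and 11.1 CPM on day 13, where mouse B stood apart. Against day 13, the rapamycin group had a log2 fold change of -0.44 for *Eif2ak2*, which did not pass (adjusted p = 0.0709), while DESeq2 called it (-0.46, adjusted p = 0.0473) and the edgeR fit of all 24 mice called it too (-0.45, adjusted p = 0.0111).

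**Figure D3:**
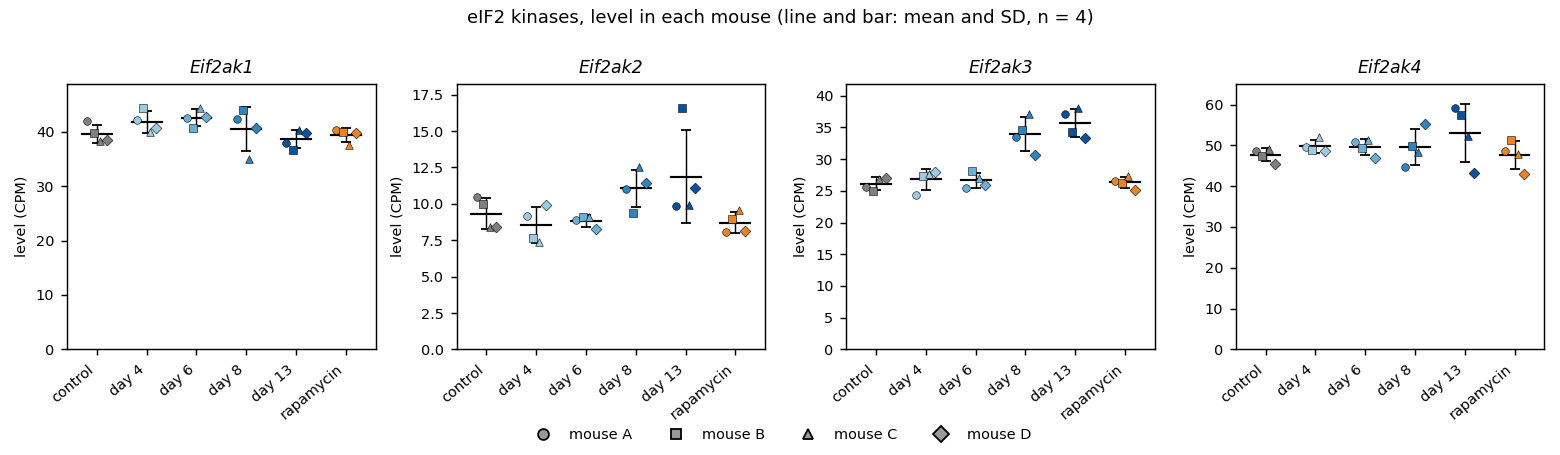
Levels (CPM) of the 4 eIF2 kinase genes in each mouse of the 6 groups, with the mean as a line and the SD as a bar (n = 4). *Eif2ak3* is higher in every day 8 and day 13 mouse than in any control; the other kinases overlap the controls in each group.

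Opposite the kinases stand the phosphatase subunits that return eIF2 to work. Of 10 genes listed as eIF2 phosphatase subunits and kinase regulators, 1 rose at each of days 4 and 6, 3 at day 8 and 4 at day 13. Of all genes, 2.61%, 6.24%, 8.41% and 15.6% rose on these days. Of the protein-coding genes, 4.35%, 10.7%, 14.2% and 24.7% rose, so the share of 10% on day 6 was near this background. *Ppp1r15a*, for the stress-induced phosphatase subunit GADD34, had 6.46 to 7.47 CPM in controls and 27.8, 34.4, 15.2 and 13.5 CPM on day 13, a log2 fold change of 1.66 ± 0.269 (adjusted p = 0.00283). *Ppp1r15b*, for its constitutive counterpart CReP, rose by 0.69 ± 0.121 (adjusted p = 0.00402). A fixed list of stress response genes was also read, namely *Atf4*, *Ddit3*, *Trib3*, *Chac1*, *Asns* and *Sesn2*. All 6 rose on days 6, 8 and 13, with a median log2 fold change of 0.85, 1.89 and 2.49. Of all genes, 6.24%, 8.41% and 15.6% rose on these days. Whether eIF2 phosphorylation had a part in the rise of these 6 genes was not tested. *Sesn2* was the only one of them to pass on day 4. All 6 were lower under rapamycin than on day 13, and *Atf4* was also below controls there (-0.35 ± 0.0601, adjusted p = 0.00649).

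eIF2B, the exchange factor that the phosphorylated eIF2 inhibits, has 5 subunits, and 4 of them rose on day 13. That was 80%, against 15.6% of all genes and 24.7% of the protein-coding genes. *Eif2b5*, for the catalytic epsilon subunit, had 44.5, 43.8, 42.3 and 44.7 CPM in controls and 59.8, 80.3, 62.6 and 57.3 CPM on day 13. It rose on day 6 (log2 fold change 0.19, adjusted p = 0.0104, and 0.212 in the fit of all 24 mice), day 8 (0.33, adjusted p = 0.00141) and day 13 (0.55 ± 0.0964, adjusted p = 0.00404). *Eif2b4* (0.51 ± 0.101, adjusted p = 0.00677) and *Eif2b2* (0.51 ± 0.128, adjusted p = 0.0175) were also called DE on day 13, and *Eif2b1* rose by 0.48. *Eif2b2* lost its call without control mouse A, B or D, with adjusted p up to 0.0565. *Eif2b3* did not pass, with 15.2 to 16.1 CPM in controls and 24.1, 27.0, 15.5 and 18.6 CPM on day 13. Its split by mouse is the one seen in many members, with A and B above C and D.

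eIF1 and eIF1A, which keep the small subunit open while it scans, included a pair of close paralogs with different courses. *Eif1a* had 28.6, 27.4, 28.1 and 30.4 CPM in controls, 43.5, 37.1, 49.6 and 42.3 CPM on day 8 and 71.2, 72.9, 47.0 and 45.8 CPM on day 13. It rose on day 6 (0.31, adjusted p = 0.00432, and 0.251 in the fit of all 24 mice), day 8 (0.58 ± 0.081, adjusted p = 0.00158) and day 13 (1.03 ± 0.151, adjusted p = 0.00187). *Eif1ax*, the X-linked paralog, was higher in level (150 to 158 CPM in controls) and passed in no comparison. Its day 13 log2 fold change was 0.12 (95% interval -0.01 to 0.25), the lowest of the 5 genes of this group. The ratio of *Eif1a* to *Eif1ax* in a mouse was 0.186 ± 0.00586 in controls and 0.162 ± 0.0192 under rapamycin, against 0.263 ± 0.0155 for day 8 and 0.353 ± 0.101 for day 13. *Eif1* (0.56 ± 0.0815, adjusted p = 0.00173) and *Eif1ad* (0.63 ± 0.0884, adjusted p = 0.00149) were called DE on day 13, and *Eif1b* rose by 0.34.

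eIF3 is the most complex factor, with 14 member genes here, and its subunits split. On day 13, 9 of 14 rose (64.3%, against 15.6% of all genes and 24.7% of the protein-coding genes). On that day 6 were called DE (42.9%, against 8.40% of all genes and 12% of the protein-coding genes). The 14 genes had log2 fold changes from -0.04 to 1.40. *Eif3c*, a core subunit (chr7:126546455-126566411, minus strand), led them. It had 153, 148, 141 and 144 CPM in controls and 173, 174, 188 and 168 CPM on day 6. The day 8 mice had 322, 238, 357 and 229 CPM and the day 13 mice 379, 591, 271 and 330 CPM. Every mouse of these 3 groups was above every control, and the rapamycin mice were at 134 to 146 CPM. Its log2 fold change was 0.25 ± 0.0396 on day 6 (adjusted p = 0.00155, and 0.513 in the fit of all 24 mice), 0.96 ± 0.125 on day 8 (adjusted p = 0.00108) and 1.40 ± 0.194 on day 13 (adjusted p = 0.00145).

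*Eif3b* was the 1 eIF3 gene that rose on day 4, a call that the fit of all 24 mice did not make (adjusted p = 0.168). It stood at 47.1 to 51.9 CPM in controls and 57.6 to 61.5 CPM on day 4, and rose on day 4 (0.30 ± 0.0413, adjusted p = 0.0031), day 6 (0.33), day 8 (0.31) and day 13 (0.69 ± 0.105, adjusted p = 0.00218). The peripheral module of b, g and i rose whole on day 13, with *Eif3g* at 0.62 ± 0.138 (adjusted p = 0.0109; its day 8 call was lost without control B or C or day 8 A, with adjusted p up to 0.0751) and *Eif3i* at 0.56 ± 0.0774 (adjusted p = 0.00139). *Eif3a*, for the large scaffold subunit, rose by 0.61 ± 0.108 (adjusted p = 0.00398) and *Eif3d*, for a cap-binding subunit, by 0.60 ± 0.112 (adjusted p = 0.00503). In the octamer of a, c, e, f, h, k, l and m, 4 of 8 rose on day 13. That was 50%, against 15.6% of all genes and 24.7% of the protein-coding genes. *Eif3e* and *Eif3f* did not pass on day 13, with 84.3 CPM against 75.7 ± 2.85 CPM for *Eif3e* and 46.4 CPM against 47.0 ± 2.93 CPM for *Eif3f*. Within a mouse, *Eif3c* over *Eif3e* was 1.84 to 2.00 in controls and 1.49 to 1.72 under rapamycin. Day 4 mice had 2.12 to 2.45, day 8 mice 3.26 to 4.52 and day 13 mice 3.52 to 6.08, so each of these groups lay above the controls.

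*Eif3e*, *Eif3f* and *Eif3h*, named here after their values were seen, were also the only members that rose under rapamycin against controls. *Eif3f* had 50.2, 46.8, 43.2 and 48.0 CPM in controls and 59.4, 55.1, 54.5 and 55.4 CPM under rapamycin, with no overlap (0.25 ± 0.0544, adjusted p = 0.0221). *Eif3h* rose by 0.24 ± 0.0555 (adjusted p = 0.0302) and *Eif3e* by 0.20 ± 0.047 (adjusted p = 0.0361). These calls are fragile: leaving out control mouse B, C or D left 0 members past the test, and leaving out any of the others left 1 or 2. *Eif3e* was the 1 eIF3 gene that fell on day 4, by 0.23 on the log2 scale (adjusted p = 0.0087). *Eif3j1* and *Eif3j2*, which share 51.0% and 87.4% of their 75-base transcript windows with other genes, chiefly each other, are uncertain, since the counting may divide their reads.

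In the cap-binding complex eIF4F with eIF4B and eIF4H, 5 of 11 genes rose on day 13 and 1 was called DE. The share that rose was 45.5%, against 15.6% of all genes and 24.7% of the protein-coding genes. The share called DE, 9.09%, was near the 8.40% of all genes and below the 12% of the protein-coding genes. *Eif4a1*, a helicase, had 186, 176, 169 and 182 CPM in controls and 309, 337, 265 and 239 CPM on day 13 (0.67 ± 0.0971, adjusted p = 0.00179). Its day 8 rise (0.26, adjusted p = 0.0253) was lost without control mouse B, C or D or day 8 mouse A, with adjusted p up to 0.0806. Its paralog *Eif4a2* had 432, 406, 411 and 439 CPM in controls and 400, 416, 419 and 419 CPM on day 13, a log2 fold change of -0.05 (95% interval -0.18 to 0.08). *Eif4a2* fell on day 4 (-0.17 ± 0.0392, adjusted p = 0.0314), a call lost without control mouse D or day 4 mouse A, B or C (adjusted p up to 0.116) and with the GC content offset (-0.10, adjusted p = 0.19). The ratio of *Eif4a1* to *Eif4a2* in a mouse was 0.422 ± 0.0107 in controls and 0.404 ± 0.022 under rapamycin, against 0.486 ± 0.0301 for day 4, 0.513 ± 0.0113 for day 6 and 0.696 ± 0.114 for day 13. Of the 75-base windows of *Eif4a1* transcripts, 62.9% also occur in other genes, mostly pseudogenes, so its level is less certain than that of *Eif4a2* (7.96%).

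**Figure D4:**
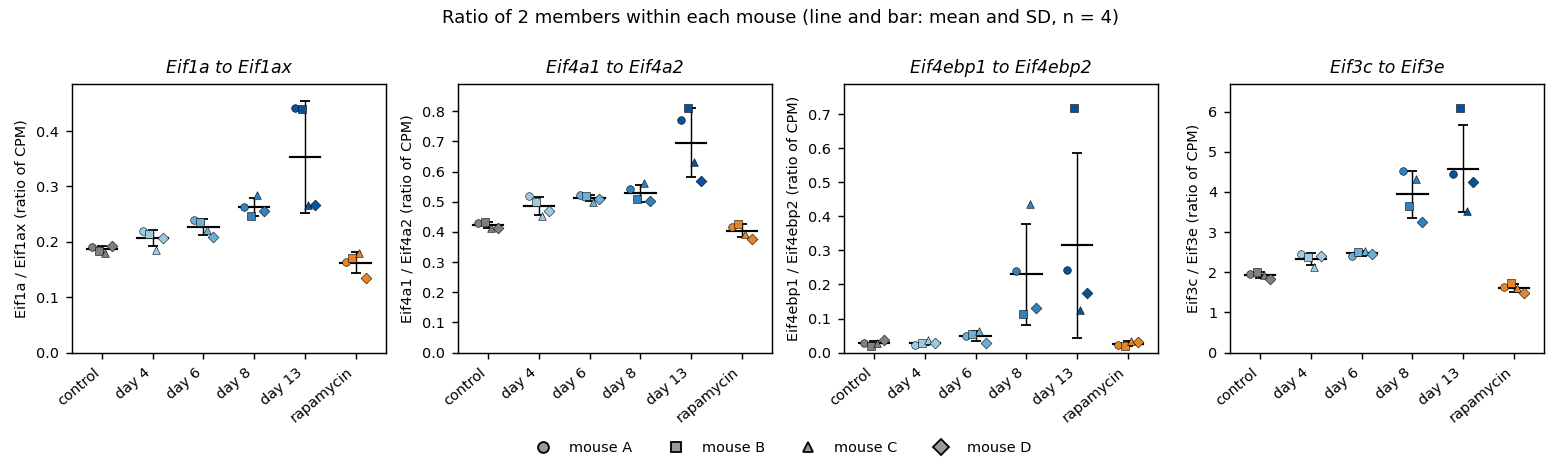
Ratio of the levels of 2 members within each mouse, for *Eif1a* to *Eif1ax*, *Eif4a1* to *Eif4a2*, *Eif4ebp1* to *Eif4ebp2* and *Eif3c* to *Eif3e*, with the mean as a line and the SD as a bar (n = 4). All 4 ratios are higher in every day 8 and day 13 mouse than in any control, and day 13 mouse B has the highest value in 3 of them.

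*Eif4g1*, for the main scaffold, rose on day 6 (0.21 ± 0.0378, adjusted p = 0.00392, and 0.0752 in the fit of all 24 mice), day 8 (0.34 ± 0.0501, adjusted p = 0.00196) and day 13 (0.50 ± 0.0767, adjusted p = 0.00229), from 264 to 283 CPM in controls to 341 to 437 CPM on day 13. *Eif4g2*, for the scaffold DAP5 that does not bind eIF4E, rose on day 8 (0.30) and day 13 (0.46 ± 0.11, adjusted p = 0.0153); the day 13 call was lost without control mouse D (adjusted p = 0.0502) and the day 8 call without control D or day 8 A (adjusted p up to 0.0507). *Eif4g3* did not pass on day 13 (0.23, adjusted p = 0.0748). *Eif4e*, for the cap-binding protein, had 86.6, 84.3, 80.9 and 85.8 CPM in controls and 109, 120, 88.6 and 95.3 CPM on day 13, a rise of 0.27 ± 0.0881 (adjusted p = 0.0462). That call and the one of *Eif4a3*, a helicase of the exon junction complex (0.35 ± 0.117, adjusted p = 0.0495), were each lost in 6 of 8 fits without 1 mouse, namely any control or day 13 mouse A or B, with adjusted p up to 0.121 and 0.133. *Eif4b*, for a helicase cofactor, was the member that fell on day 6 (-0.21 ± 0.0388, adjusted p = 0.00489), from 223 to 229 CPM in controls to 187 to 205 CPM.

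At the joining step, *Eif5*, *Eif5a*, *Eif5a2* and *Eif6* rose on days 8 and 13, and *Eif5b* did not pass. *Eif6*, for a factor that keeps the large subunit apart from the small one, rose most. It had 18.8, 18.5, 18.8 and 21.1 CPM in controls and 39.8, 46.3, 26.1 and 27.9 CPM on day 13 (0.84 ± 0.166, adjusted p = 0.00662). Its day 8 rise (0.34, adjusted p = 0.035) was lost without control mouse A, B or C or day 8 mouse A or C, with adjusted p up to 0.0968. *Eif5a*, for the elongation and termination factor that carries hypusine, had 102, 94.1, 91.8 and 98.3 CPM in controls and 160, 175, 137 and 143 CPM on day 13 (0.65 ± 0.0795, adjusted p = 9.61e-04). *Dhps*, for the first enzyme of hypusine synthesis, was higher as well, by 0.61 ± 0.0816 on day 8 (adjusted p = 0.00122) and 1.21 ± 0.157 on day 13 (adjusted p = 0.00112). *Eif5*, the GTPase activator of eIF2, rose by 0.18 on day 6, 0.37 on day 8 and 0.43 ± 0.09 on day 13 (adjusted p = 0.00851), and *Eif5a2* by 0.46 ± 0.0663 on day 13 (adjusted p = 0.0017).

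**Figure D5:**
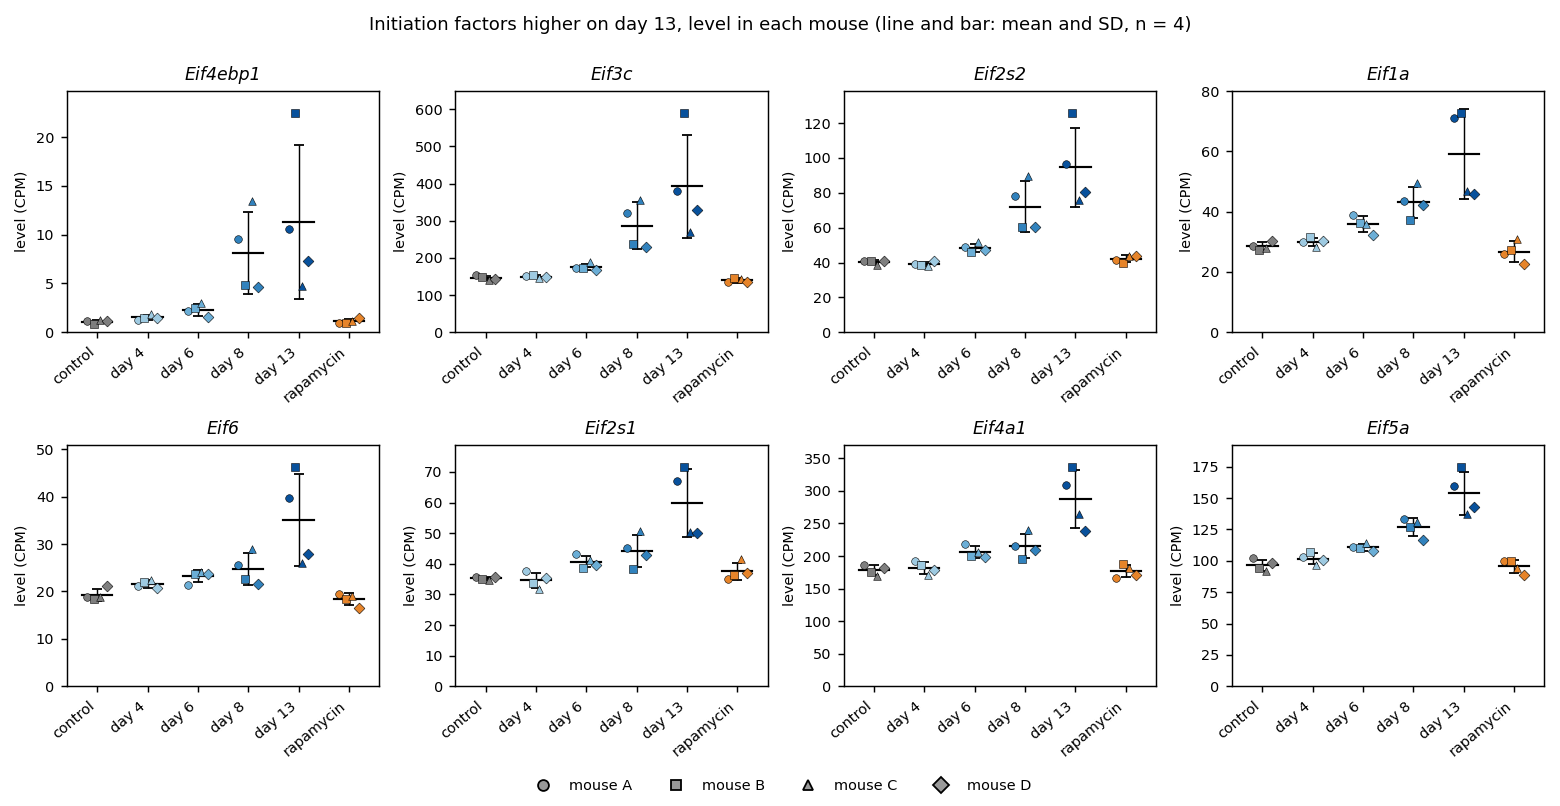
Levels (CPM) of 8 members in each mouse of the 6 groups, with the mean as a line and the SD as a bar (n = 4). Day 13 mice lie above the controls in every panel, with mice A and B above C and D, and the rapamycin mice overlap the controls.

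Beyond the members, 37 genes that work with them were read. On day 13, 15 of 37 rose (15.6% of all genes) and 2 fell (11.3% of all genes). Besides the phosphatase subunits and *Dhps*, those called DE upward include *Pabpc4*, for a poly(A)-binding protein (1.09 ± 0.206, adjusted p = 0.0055), *Abce1*, for the ribosome recycling factor (0.68 ± 0.116, adjusted p = 0.0036) and *Bzw1*, for an eIF5 mimic (0.68 ± 0.0938, adjusted p = 0.00143). *Mknk2*, for a kinase of eIF4E, rose by 0.67 ± 0.0872 (adjusted p = 0.00112) and *Bzw2* by 0.56 ± 0.0946 (adjusted p = 0.00349). *Gigyf1*, for a partner of the cap-binding repressor 4EHP, was called DE in the other direction (-0.57 ± 0.121, adjusted p = 0.00908), and under rapamycin it was higher than on day 13 (0.59 ± 0.127, adjusted p = 0.00708).

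Rapamycin was compared with both ends. Against day 13, *Eif4ebp1* had a log2 fold change of -3.29 ± 0.442 (adjusted p = 9.68e-04), *Eif3c* of -1.47 ± 0.192 (adjusted p = 8.42e-04) and *Eif2s2* of -1.15 ± 0.138 (adjusted p = 6.08e-04). *Eif1a* had -1.13 ± 0.166 (adjusted p = 0.00138) and *Eif6* had -0.92 ± 0.168 (adjusted p = 0.00358). Against controls none of these passed, with *Eif3c* at -0.06 (95% interval -0.17 to 0.04), *Eif2s2* at 0.08 (-0.03 to 0.19), *Eif1a* at -0.09 and *Eif6* at -0.07. The mice given rapamycin lay within 39.6 to 44.0 CPM for *Eif2s2* and 22.6 to 30.9 CPM for *Eif1a*, close to the control ranges of 38.3 to 40.8 and 27.4 to 30.4 CPM. The rapamycin and day 13 mice carry different numbers in the names of the data, so treatment and whatever those numbers mark cannot be told apart.

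Many members, and many other genes, split the mice of a group in 1 way, which was picked out after the values were seen. On day 13, mice A and B both stood above C and D in 34 of 53 members (64.2%), including 25 of the 30 that rose, and in 33.4% of 13908 protein-coding genes. On day 8, mice A and C both stood above B and D in 33 of 53 members (62.3%), including 21 of the 24 that rose, and in 32.2% of the protein-coding genes. Without day 13 mice A and B, 29 members rose and 8 were called DE, and without mice C and D, 38 rose and 27 were called DE. The shares of all genes in these refits are not given here, so the change in counts cannot be read as particular to the members. For *Eif4ebp1* the day 13 log2 fold change was 2.46 without the first pair and 3.91 without the second, and for *Eif3c* it was 1.04 and 1.72. The day 13 pairs also differ in *Eif2s3y*, in the number in the names of the data and in depth. Total counts were 69971957 and 126435936 in mice A and B and 38423852 and 41101425 in mice C and D. On day 8 only mouse D expressed *Eif2s3y*, so the day 8 pairs do not part by that gene.

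Markers of neurons and of other cell types moved in the same comparisons. The astrocyte gene *Gfap* was at 162 to 209 CPM in controls, 682, 127, 900 and 158 CPM on day 8 and 751, 1357, 372 and 437 CPM on day 13. The summed level of 5 astrocyte markers was 1048 to 1087 CPM in controls, 831 to 1678 CPM on day 8 and 1153 to 2088 CPM on day 13, where 1 of 5 rose (*Gfap*) and 1 fell (*Gja1*). The 5 microglia markers summed to 191 to 228 CPM in controls and 182 to 254 CPM on day 13, the 5 excitatory neuron markers to 2382 to 3155 CPM and 2658 to 3724 CPM, and the 5 oligodendrocyte markers to 2377 to 3599 CPM and 1653 to 3546 CPM. Of the 5 neuron markers, *Slc17a7* and *Neurod2* rose on day 6, day 8 and day 13 (0.73 ± 0.075, adjusted p = 5.08e-04, and 0.89 ± 0.0694, adjusted p = 1.58e-04, on day 13) and were lower in rapamycin than on day 13 (-0.79 and -0.62). On day 6, 5 of 5 astrocyte and 4 of 5 microglia markers fell, with median log2 fold changes of -0.33 and -0.29. Of all genes, 3.81% fell on day 6, and of the protein-coding genes 5.54%. Under rapamycin, 2 of 5 astrocyte, 4 of 5 microglia and 3 of 5 oligodendrocyte markers fell against controls. The share of all genes that fell in that comparison is not given here, so these counts have no background. None of these markers was at 0 in any mouse. Their part in the members' differences was not tested.

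The members that passed in no comparison numbered 16. Besides the kinases *Eif2ak1*, *Eif2ak2* and *Eif2ak4* they include *Eif1ax*, *Eif2a* and *Eif2d*, which can deliver initiator tRNA without eIF2, *Eif2b3*, *Eif2s3x* and *Eif2s3y*, *Eif3m*, *Eif4e2* and *Eif4e3*, *Eif4enif1*, *Eif4g3*, *Eif4h* and *Eif5b*. *Eif2d* was at 31.4 to 36.2 CPM in controls and 32 to 35.7 CPM on day 13, a log2 fold change of -0.05 ± 0.0693. *Eif4e3* lies within a second protein-coding gene on the same strand, so its level is uncertain.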

How the data were processed

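Hippocampal total RNA was depleted of rRNA and sequenced from strand-marked libraries. The deposited values are raw read counts per gene, which the authors made with CutAdapt 1.16.5, STAR 2.7.2b and featureCounts 1.6.4 on mm10 with GENCODE M24; the strand setting of the counting is not given in the sources used here. Groups came from the sample labels, with 4 mice in each.

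Each comparison was fitted on its 8 mice with edgeR 4.0.16 (R 4.3.3; filterByExpr, TMM scaling, quasi-likelihood F test, two-sided), and p-values were adjusted by Benjamini-Hochberg over all genes tested. The p-values measure the spread between these mice. SE was the absolute log2 fold change divided by the square root of F. Levels are CPM with TMM factors over 24 mice, and CPM per kb used the union of exons in GENCODE M21, of the same build. In all 24 mice more genes had a count of 2 (2484 to 3001) than of 1 (1006 to 1292), so reads of a pair may have been counted apart, which was not tested. No 2 mice of a group had identical counts, and in 36 pairs of replicates chi-square per degree of freedom was at least 5.43, above sampling noise.

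The members and the gene lists were chosen with earlier results of these data known. Members given with values were those called DE in any comparison, those set by role (kinases, 4E-binding proteins, eIF2 alpha and gamma, *Eif2b5*, *Eif4e*, the eIF4G scaffolds and eIF4A helicases) and, in each complex, the gene with the lowest adjusted p on day 13 and in rapamycin against day 13. Values of *Eif1ax*, *Eif1b*, *Eif2b1*, *Eif2b3*, *Eif3e*, *Eif3f*, *Eif3h*, *Eif4b*, *Eif5* and *Eif5a2* fall outside this rule and were chosen after they were seen. Partner genes were named where called DE in any comparison; *Atf4* and *Sesn2* are from the fixed stress list. Alternatives were DESeq2 1.42.0, its size factors, no filter, 1 fit of all 24 mice, a replicate block, the *Xist* level as a covariate, a GC content offset, a block by the number in the names of the data, a threshold of 1 on the log2 fold change and leaving out each mouse. Leaving out a pair of day 13 mice was added after seeing the data.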

Additional observations from a re-analysis of the deposited data

Results flagged for a closer look

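In 9 of 192 sets of 4 mice, 1 mouse stood apart from the other 3 by a Dixon criterion, and chance gives about 1 in 20 such sets. *Eif1ad* was at 22.3 CPM in day 13 mouse B and at 18.5 to 18.9 CPM in the others, and *Eif4a2* was at 400 CPM in day 13 mouse A against 416 to 419 CPM. On day 4, *Eif2ak3* was at 24.3 CPM in mouse A against 27.4 to 27.9 CPM, and *Eif4g2* at 403 CPM in mouse C against 439 to 442 CPM. *Eif2b5* was at 47.3 CPM in day 6 mouse D against 50.8 to 51.5 CPM, and at 45.1 CPM in rapamycin mouse B against 41.9 to 42.1 CPM. Among controls, *Eif2s2* was at 38.3 CPM in mouse C against 40.6 to 40.8 CPM, *Eif6* at 21.1 CPM in mouse D against 18.5 to 18.8 CPM, and *Eif4ebp3* at 1.02 CPM in mouse D against 0.613 to 0.679 CPM.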

How the results depend on the processing

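No call changed direction under the alternatives run. Of 81 calls on named members, DESeq2 and its size factors lost 0, no filter lost 3, the GC content offset 4, the *Xist* covariate 8, the replicate block 8 and 1 fit of all 24 mice 18; the cause was not tested. Fitting all 24 mice together left 0 members past the test on day 4 (4 in the 8-mouse fit), 1 on day 6 (16), 0 called DE on day 6 (1) and 1 under rapamycin against controls (3). With the *Xist* covariate there were 2 on day 4 and 1 under rapamycin against controls. A log2 fold change over 1 left 1 called DE on day 8 (4), 4 on day 13 (18) and 4 in rapamycin against day 13 (19), by construction. Without day 13 mice A and B, 8 were called DE on day 13 and 10 in rapamycin against day 13.

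Leaving out 1 mouse gave 2 (without day 4 mouse B) to 5 members on day 4, 13 to 17 on day 6, 17 to 24 on day 8, 23 to 35 on day 13, 0 to 2 under rapamycin against controls and 24 to 32 in rapamycin against day 13. Members called DE numbered 0 to 1 on day 4, 1 to 2 on day 6, 4 to 4 on day 8, and 13 (without day 13 mouse B) to 25 (without day 13 mouse C) on day 13 and in rapamycin against day 13. The day 4 and day 6 maxima came without control mouse A, where *Eif2s3y* was added.

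Same-letter deviations correlated with both signs, from -0.213 to 0.224, so no pairing of the mice by letter was seen. With 4 mice in a group, this check cannot exclude a shared litter or batch. With the replicate block, 4 members passed on day 4, 14 on day 6, 19 on day 8, 26 on day 13, 2 under rapamycin against controls and 25 in rapamycin against day 13.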
